A study of Mus musculus with 7 samples.

Results

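The MYC network and the nucleolar machinery that builds ribosomes were followed in natural killer (NK) cells of mouse spleen with and without the transcription factor Hhex. The 42 genes were taken by symbol: 5 of the MYC network and 37 of ribosome biogenesis. All 42 have a row among the 53379 genes of the deposited count table, and all 42 passed the filter on low counts. Bulk RNA was sequenced from 4 samples labelled Hhex KO and 3 labelled Cre control, all of the C57BL/6 strain and sorted directly from spleen by a gate for CD45, NK1.1, NKp46 and CD49b with CD3 negative. The controls carry Cre as their label says. Of the promoter that drives Cre and of the age and sex of the mice, the sources used here say nothing. The series describes the samples as biological replicates but does not say whether each came from a separate animal, so the p-values measure only how far these samples spread, and that spread may be technical. In bulk RNA, more cells that express a gene and more RNA per cell cannot be told apart.

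In Hhex KO, Myc and Nle1 rose. Myc, the transcription factor at the head of the network, averaged 50.1 ± 5.83 CPM in the controls (SD, n = 3) and 74.1 ± 8.39 CPM in Hhex KO (SD, n = 4), and Nle1, a factor of large-subunit assembly, 7.74 ± 0.913 and 15.9 ± 2.68 CPM. The unit CPM, counts-per-million, relates the count of a gene to the size of its library after TMM scaling, which corrects for differences in composition. Of the 42 genes, 2 rose and 0 fell at an adjusted p below 0.05, against 2.68% of all 12161 genes tested that rose and 1.87% that fell. The other 40 did not pass the test. Of the 42 log2 fold changes, 38 were above 0, against 52.7% of all genes tested, and their median was 0.30, against 0.02 for all genes. The members were chosen with earlier results of these data known, so these shares describe the list and are not a test of it.

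MYC binds DNA as a pair with MAX, at a short sequence called the E-box, and drives growth genes. The MXD proteins and MXI1 also pair with MAX, occupy the same sequence and repress. Among the best known targets of MYC are genes for ribosome production. In the nucleolus, RNA polymerase I transcribes the ribosomal RNA precursor, small nucleolar ribonucleoproteins (snoRNPs) guide its chemical modification, and separate sets of factors assemble the small and the large subunit. NK cells enlarge and build ribosomes when cytokines such as interleukin-15 activate them.

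The core E-box CACGTG, which reads the same on both strands, was searched for in the promoter of each member, from 250 bases before to 50 bases after the start site in RefSeq on GRCm38.p6. Of the 42 members, 36 had a promoter in the table used, and 10 of these held the motif, a share of 27.8%. Myc, Fbl, Bop1, Rrs1, Rrp12 and Npm1 had no promoter there, so they were not searched. The share was 8.09% over the genes of all promoters in the table and 11.9% over those of the genes tested. The windows of 30 bases below, 5′ to 3′ on the strand of the gene with the motif in capitals and with position 1 at the start site, are shown for Nle1, for both members with the next larger log2 fold changes among the 10, and for the MYC network and RNA polymerase I genes that hold it.
Nle1, chr11:82908355-82908384, minus strand, motif from position 24: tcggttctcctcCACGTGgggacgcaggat
Tsr1, chr11:74898092-74898121, plus strand, motif from position 25: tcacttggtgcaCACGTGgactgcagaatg
Utp20, chr10:88826765-88826794, minus strand, motif from position 38: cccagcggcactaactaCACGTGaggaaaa
Max, chr12:76962234-76962263, minus strand, motif from position -3: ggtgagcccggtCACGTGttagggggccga
Mxd4, chr5:34187912-34187941, minus strand, motif from position -219: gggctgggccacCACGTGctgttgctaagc
Rrn3, chr16:13780639-13780668, plus strand, motif from position -48: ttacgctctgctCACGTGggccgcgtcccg
In these windows the sequence next to the motif differs from gene to gene, and only the 6 core bases were searched. Rrn3 holds a second E-box, at position -215. Ltv1, Nop2, Pes1 and Wdr43 are the other members with the motif. The median log2 fold change was 0.16 for the 10 members with an E-box in this window and 0.30 for the 26 without. A match describes the sequence and does not show that MYC binds there.

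Total counts ranged from 10589915 to 18456404 per library. Hhex, the targeted gene, was at 93.5 to 96.1 CPM in the controls and at 54.2 to 64.8 CPM in Hhex KO, so reads of the gene remained in each library labelled KO. NK markers were abundant in all 7 libraries, with Ncr1, the gene of NKp46, at 791 to 1035 CPM. The 10 NK markers summed to 17867 to 22069 CPM in the controls and 14286 to 18900 CPM in Hhex KO. Of these 10, 8 had a log2 fold change below 0, against 5755 of all 12161 genes tested, and 0 passed the test. The summed level of 11 T cell markers was 288 to 337 CPM in the controls and 403 to 463 CPM in Hhex KO. The groups did not overlap in this sum. Cd4 was at most 2.91 and Cd8a at most 0.458 CPM. Of 8 T cell markers tested, 7 had a log2 fold change above 0, against 52.7% of all genes tested, and Trbc2 rose. The genes of CD3, for which the gate was negative, had log2 fold changes of 0.97 ± 0.27 (Cd3d), 0.87 ± 0.29 (Cd3e) and 0.72 ± 0.25 (Cd3g). They did not pass the test. The 7 B cell markers summed to 217 to 280 against 241 to 469 CPM, and Cd79b rose. The 10 myeloid markers summed to 263 to 367 against 165 to 686 CPM, highest in Hhex KO replicate 2. The 10 erythroid and platelet markers summed to 35.6 to 50.3 against 6.91 to 64.6 CPM. The part of these other cells in the results was not tested.

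Within the MYC network, Myc was the single member that passed the test. In replicate order, here and below, it was at 44.5, 49.7 and 56.1 CPM in the controls and at 72.3, 72.3, 85.8 and 65.9 CPM in Hhex KO. Every KO library lay above every control, and the 2 groups did not overlap. Myc (ENSMUSG00000022346.15, chromosome 15, 61985391 to 61990374 on GRCm38) had a log2 fold change of 0.56 ± 0.13 (SE; quasi-likelihood test of edgeR, Benjamini-Hochberg adjusted p = 0.0481), close to the threshold. Leaving out any library except Hhex KO replicate 4 ended this call, at adjusted p 0.0785 to 0.216, and the log2 fold change then stayed between 0.48 and 0.66. Without Hhex KO replicate 4 the adjusted p was 0.0336.

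The partner and the antagonists of MYC gave values near or below those of the controls. Max, the shared partner, was at 110, 122 and 123 CPM in the controls and at 118, 129, 133 and 108 CPM in Hhex KO, and its log2 fold change was 0.04 ± 0.11 (adjusted p = 0.904). Mxd1, which encodes the repressor MAD1, was at 187, 164 and 195 CPM against 205, 156, 146 and 176 CPM (log2 fold change -0.09 ± 0.14, adjusted p = 0.826). Both genes overlapped fully between the groups. Mxd4, which encodes the repressor MAD4, was at 318, 302 and 364 CPM against 309, 296, 303 and 279 CPM (log2 fold change -0.15 ± 0.11, adjusted p = 0.580). Mxi1, another repressor of the family, was at 20.2, 22.1 and 25.7 CPM against 24.1, 24.7, 24.2 and 19.0 CPM (log2 fold change 0.02 ± 0.14, adjusted p = 0.968). In both genes Hhex KO replicate 4 was the lowest of the 7 libraries. None of these 4 misses shows that the level did not differ: at these standard errors a small change could not be detected.

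**Figure D1:**
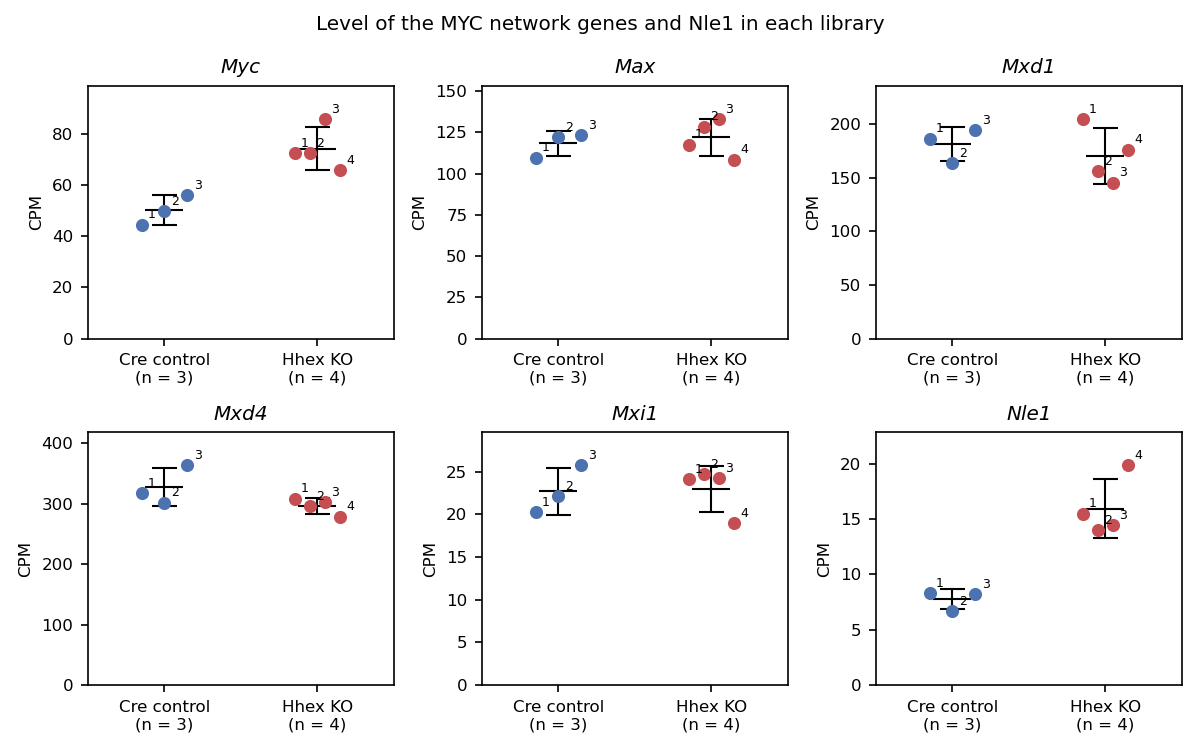
Level in CPM (vertical axes, from 0) of the 5 MYC network genes and of Nle1 in each library, numbered by replicate, with the mean and SD of each group as black bars. The groups are apart for Myc and Nle1, at 44.5 to 56.1 against 65.9 to 85.8 CPM for Myc, and overlap for Max, Mxd1, Mxd4 and Mxi1.

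Of the context genes of the MYC network, which are 9 further members, 6 were tested, 1 rose and 0 fell. Of all genes tested, 2.68% rose and 1.87% fell. The context gene that rose was Mxd3, whose product MAD3 is a MAX partner known from cycling cells in S phase. It was at 1.42, 3.87 and 3.35 CPM in the controls and at 10.5, 10.9, 12.9 and 6.73 CPM in Hhex KO, and its log2 fold change was 1.83 ± 0.36 (adjusted p = 0.0247). All 4 KO libraries lay above the controls. Mycn, Mycl and Mlxipl did not pass the filter on low counts. Mga, Mlx, Mlxip, Mnt and Zbtb17 were tested and did not pass, and the median log2 fold change over the 6 was 0.02.

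Compared per length of exon, the MYC network had a fixed order in the controls, from Mxd4 (38.7 ± 3.76 CPM per kb) through Max (32.9 ± 2.08), Mxd1 (25.7 ± 2.28) and Myc (18.4 ± 2.14) to Mxi1 (3.32 ± 0.409; SD, n = 3). In Hhex KO, Myc was at 27.3 ± 3.09 CPM per kb and Mxd1 at 24.1 ± 3.70 (SD, n = 4), a gap within their spread. Within single libraries, Mxd1 was above Myc in all 3 controls and in Hhex KO replicates 1 and 4, and below it in Hhex KO replicates 2 and 3. Exon length was summed over all annotated exons, so genes with retained introns or long alternative exons read low on this scale.

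Among the 5 genes of RNA polymerase I, the enzyme that transcribes ribosomal RNA, 0 passed the test and the median log2 fold change was 0.31. Polr1b, the second largest subunit, was at 21.9, 27.6 and 29.2 CPM in the controls and at 33.4, 39.8, 41.5 and 30.9 CPM in Hhex KO (log2 fold change 0.47 ± 0.15, adjusted p = 0.135). The groups did not overlap. Polr1a, the largest subunit, was at 28.9, 40.2 and 40.6 CPM against 51.5, 55.5, 61.4 and 40.2 CPM (log2 fold change 0.51 ± 0.18, adjusted p = 0.157). Of the KO libraries, replicate 4 alone lay within the range of the controls there. Polr1c, a subunit shared with RNA polymerase III, had a log2 fold change of 0.31 ± 0.14. The 2 factors that bring the polymerase to the gene had values nearer to 0: Ubtf, which binds the ribosomal DNA promoter, -0.03 ± 0.12, and Rrn3, which prepares the polymerase for initiation, 0.01 ± 0.17. Of 10 further genes of the polymerase and its promoter factors that were tested, 0 passed and the median was 0.07. The log2 fold change was above 0 for 6 of them, against 52.7% of all genes tested.

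The 10 snoRNP and nucleolar chaperone genes all had log2 fold changes above 0, from 0.13 to 0.50, and 0 passed the test. Nop56, a core protein of the box C/D snoRNPs that methylate ribosomal RNA, was at 59.8, 56.5 and 55.9 CPM in the controls and at 71.2, 72.2, 68.4 and 74.5 CPM in Hhex KO. Its log2 fold change was 0.32 ± 0.10 (adjusted p = 0.105), and every KO library was above every control, replicate 4 being the highest. Npm1, nucleophosmin, a histone and ribosome chaperone of the nucleolus, was at 318, 366 and 318 CPM against 378, 500, 516 and 425 CPM (log2 fold change 0.45 ± 0.15, adjusted p = 0.135), again without overlap. Among the other box C/D proteins, Fbl, the methyltransferase fibrillarin, had a log2 fold change of 0.46 ± 0.24, and Nop58 of 0.19 ± 0.17. Of the box H/ACA proteins, which convert uridine to pseudouridine, Nhp2 had 0.50 ± 0.22, Gar1 0.47 ± 0.23 and Dkc1, the catalytic dyskerin, 0.35 ± 0.16. Dkc1 also did not overlap between groups, although Hhex KO replicate 4, at 62.4 CPM, was just above the highest control, at 62.3 CPM. Ncl, nucleolin, the most abundant of the 42 genes in CPM, had 0.13 ± 0.18, with Hhex KO replicate 4 at 492 CPM and the other 3 KO libraries at 682 to 708 CPM. Nolc1 and Npm3 had 0.19 ± 0.14 and 0.19 ± 0.18.

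Of the 11 small-subunit factors, 0 passed the test, 10 had a log2 fold change above 0, and the median was 0.38. Nob1, the nuclease that cuts the 3′ end of 18S ribosomal RNA, was at 26.2, 31.1 and 31.2 CPM in the controls and at 33.7, 43.1, 42.8 and 38.0 CPM in Hhex KO (log2 fold change 0.42 ± 0.13, adjusted p = 0.122). Heatr1, a scaffold of the early processome, was at 48.5, 64.4 and 63.9 CPM against 74.9, 85.6, 97.2 and 67.0 CPM (log2 fold change 0.46 ± 0.16, adjusted p = 0.160). Neither gene overlapped between the groups. Rrp12 had the largest log2 fold change of this set, 0.61 ± 0.28, with 10.6 CPM in Cre control replicate 1 and 18.2 to 20.1 CPM in the other controls. Tsr1, a GTPase-like factor of late maturation, had 0.45 ± 0.16, Noc4l 0.40 ± 0.17 and Utp20 0.38 ± 0.21. Wdr43 (0.20 ± 0.10) and Rrp9 (0.13 ± 0.10) had smaller values with groups that did not overlap. Bysl (0.02 ± 0.21), Ltv1 (0.00 ± 0.12) and Nop14 (-0.01 ± 0.11) were close to 0. Over 33 further small-subunit genes that were tested, 0 passed, 26 were above 0, against 52.7% of all genes tested, and the median was 0.13.

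The 11 large-subunit factors all had log2 fold changes above 0, with a median of 0.30, and 1 rose. Nle1 (ENSMUSG00000020692.14, chromosome 11, 82900768 to 82908411) encodes the notchless homologue, whose counterpart in yeast, Rsa4, contacts the AAA ATPase Rea1 on the precursor of the large subunit. It was at 8.32, 6.69 and 8.21 CPM in the controls and at 15.5, 14.0, 14.4 and 19.8 CPM in Hhex KO, from 76 to 152 and 224 to 245 reads per library. All KO libraries lay above the controls, and replicate 4 was the highest. The log2 fold change was 1.04 ± 0.18 (adjusted p = 0.0154), the largest of the 42. The call was lost without any 1 of the 3 controls, at adjusted p 0.0744 to 0.0787, and held without any 1 of the KO libraries. Wdr12, which forms the PeBoW complex with Pes1 and Bop1, was at 11.2, 12.5 and 12 CPM against 13.7, 18.6, 18.9 and 15 CPM (log2 fold change 0.47 ± 0.16, adjusted p = 0.149), without overlap. The other members of that complex had smaller values, 0.31 ± 0.16 for Bop1 and 0.11 ± 0.17 for Pes1, and their groups overlapped.

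The remaining large-subunit genes did not pass the test. Nop16 had a log2 fold change of 0.68 ± 0.24, with 25.4 and 26.2 CPM in Hhex KO replicates 2 and 3 and 10.9 to 15.7 CPM in all other libraries. Gnl3, nucleostemin, showed another order, with 32.3 and 35.8 CPM in Hhex KO replicates 1 and 4 and 20.2 to 24.5 CPM in the other 5 libraries (0.33 ± 0.21). Rrp1b (0.29 ± 0.12) did not overlap between groups and was highest in Hhex KO replicate 4. Nop2, a ribosomal RNA methyltransferase (0.30 ± 0.14), Noc2l (0.29 ± 0.13), Rrs1 (0.20 ± 0.18) and the helicase gene Ddx21 (0.05 ± 0.16) overlapped. Over 37 further large-subunit genes, 0 passed, 30 were above 0, against 52.7% of all genes tested, and the median was 0.12. Mdn1, which encodes the mouse counterpart of Rea1 and was chosen after the values were seen, had 0.91 ± 0.37 (adjusted p = 0.240), with overlapping groups.

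**Figure D2:**
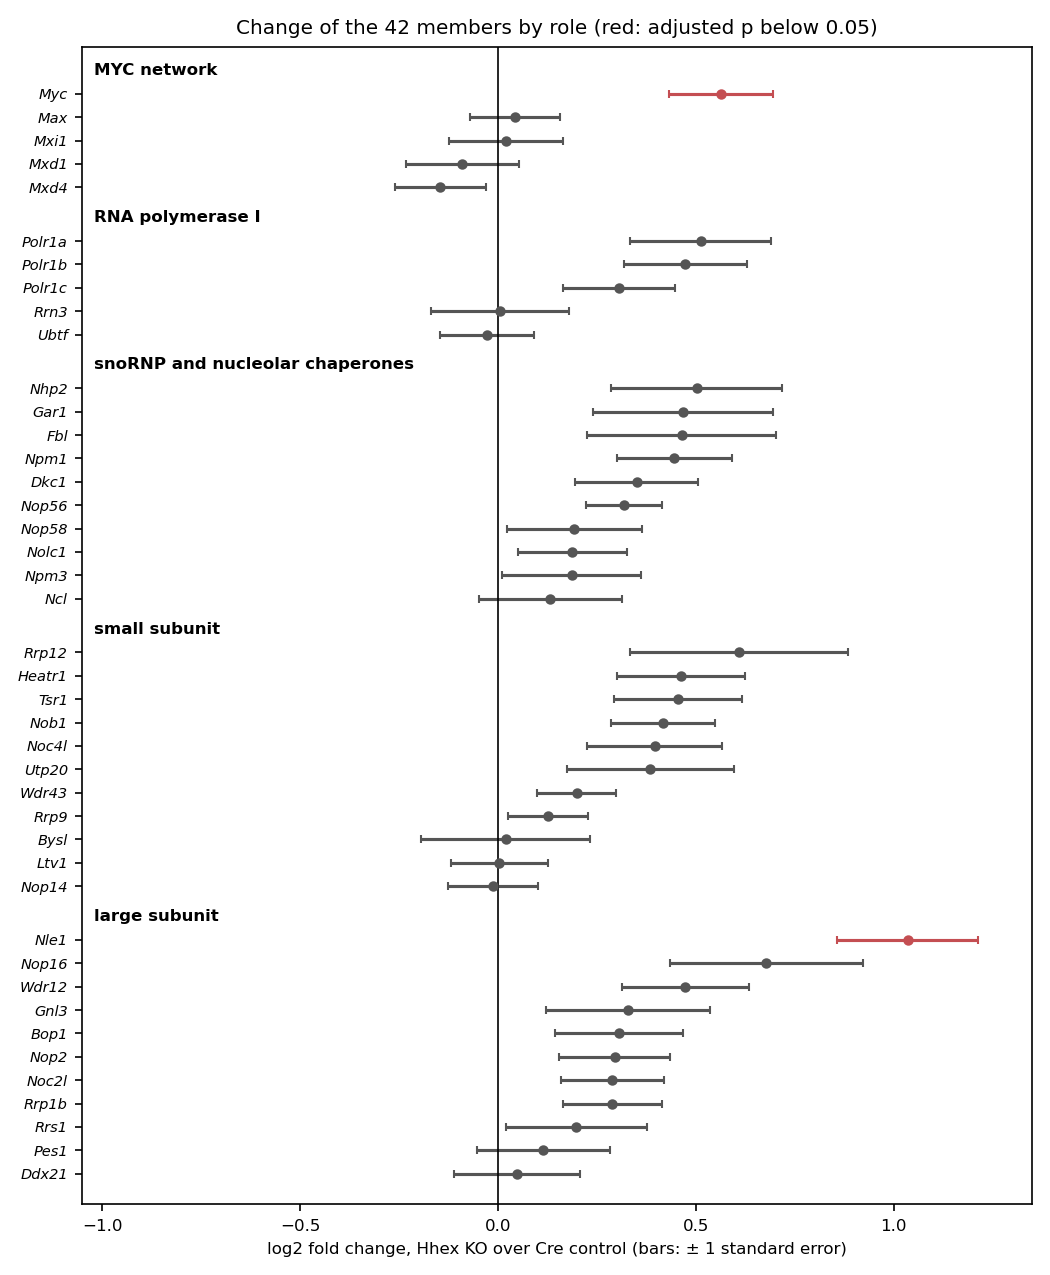
Log2 fold change of Hhex KO over Cre control (horizontal axis) for the 42 genes in 5 groups by role, with bars of 1 standard error and genes at an adjusted p below 0.05 in red. Myc and Nle1 are the 2 red points, and 38 of the 42 points lie to the right of 0.

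At an unadjusted p below 0.05, 14 of the 42 members were higher and 0 lower. Of all 12161 genes tested, 10.1% were higher and 1027 genes were lower. All 4 KO libraries lay above all 3 controls for 12 members, against 9.37% of all genes. They lay below all 3 controls for 0 members, against 1214 of the 12161 genes. The 12 members above all controls were Myc, Polr1b, Npm1, Nop56, Dkc1, Rrp9, Wdr43, Heatr1, Nob1, Rrp1b, Wdr12 and Nle1.

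The libraries of Hhex KO were not alike. Relative to the mean of the controls, the median log2 level of the 37 biogenesis genes was -0.14, 0.10 and 0.05 in the controls and 0.20, 0.43, 0.48 and 0.08 in Hhex KO, in replicate order. Replicate 4 of the KO thus lay below Cre control replicate 2, while the median over all genes tested was between -0.01 and 0.01 in every library. Of the 42 members, 27, 35, 33 and 14 were above all controls in Hhex KO replicates 1, 2, 3 and 4, against 33.6%, 37.4%, 38.2% and 36.8% of all genes tested. The members' share was thus above that of all genes in replicates 1, 2 and 3 and under it in replicate 4. Below all controls were 2 members in each of Hhex KO replicates 1, 2 and 3 and 10 in replicate 4, against 35.6% to 36.3% of all genes tested, so that in all 4 libraries the members' share was under that of all genes. The highest of the 7 libraries was Hhex KO replicate 3 for 24 members, against 20.9% of all genes, and replicate 2 for 8 members, against 14.0%. The lowest was Cre control replicate 1 for 24 members, against 13.8% of all genes, and Hhex KO replicate 4 for 9 members, a share close to the 22.6% of all genes. The order of the libraries had the same ends in each biogenesis set. The RNA polymerase I, snoRNP, small-subunit and large-subunit medians were all highest in Hhex KO replicate 3 and lowest in Cre control replicate 1. The place of Hhex KO replicate 4 varied. Its median was above every control for RNA polymerase I (0.15) and the small subunit (0.13). It was within the range of the controls for the snoRNP set (-0.06) and the large subunit (0.05).

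**Figure D3:**
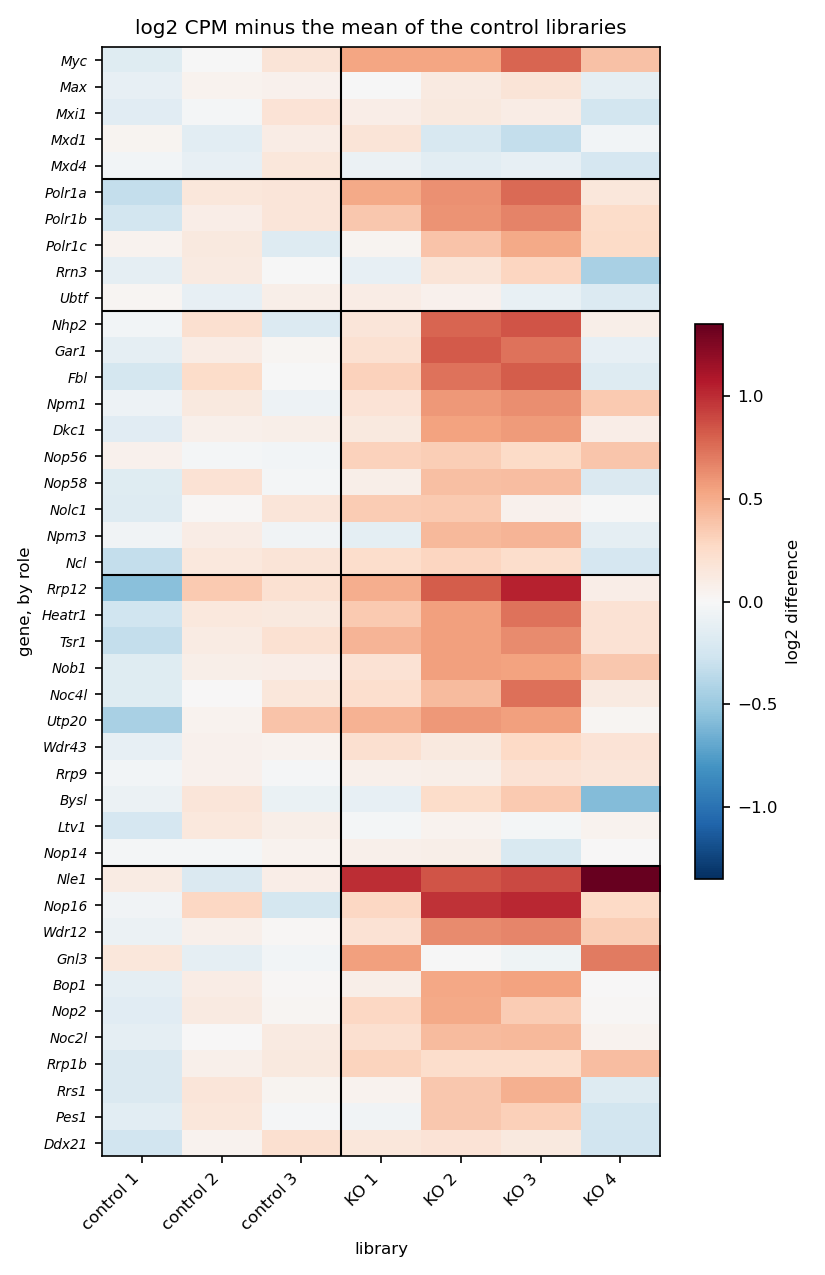
Log2 CPM of each of the 42 genes (rows, by role) minus its mean over the control libraries, for the 7 libraries (columns), with red above and blue below that mean. The columns of Hhex KO replicates 2 and 3 are red over most rows, that of replicate 4 is mixed with red at Nle1 and Gnl3, and that of Cre control replicate 1 is mostly blue.

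Other measures also differed between the libraries, not all in this order. Of 15 proliferation genes, 5 rose in Hhex KO (Ccnb1, Tk1, Birc5, Cdk1 and Bub1) and 0 fell, against 2.68% of all genes tested that rose and 1.87% that fell. The median log2 fold change of the 15 was 1.72. Their summed level was 389, 602 and 558 CPM in the controls and 1164, 1198, 1281 and 584 CPM in Hhex KO, with replicate 4 within the range of the controls. Abundant genes such as Pcna, Mcm2, Mcm5 and Top2a carry most of that sum, and by the median over the 15 genes replicate 4, at 0.90 on the log2 scale from the control mean, lay above the controls, at -0.83, 0.50 and 0.26. For 10 of the 15, the 5 called among them, every KO library was above every control, against 9.37% of all genes tested. RNAs retained in the nucleus had another order. Malat1, the most abundant of them, was at 619, 243 and 382 CPM in the controls and at 918, 155, 138 and 650 CPM in Hhex KO, highest in replicates 1 and 4 and lowest in replicates 2 and 3. The library with the lowest median of the biogenesis genes in its group had the highest Malat1 among the controls, in replicate 1, and the second highest in Hhex KO, in replicate 4. Hhex KO replicate 4 carries sample number 95 in the labels, and the other libraries carry numbers 20 to 28. No label says whether this marks a separate batch. The part of proliferation in the result was not tested.

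**Figure D4:**
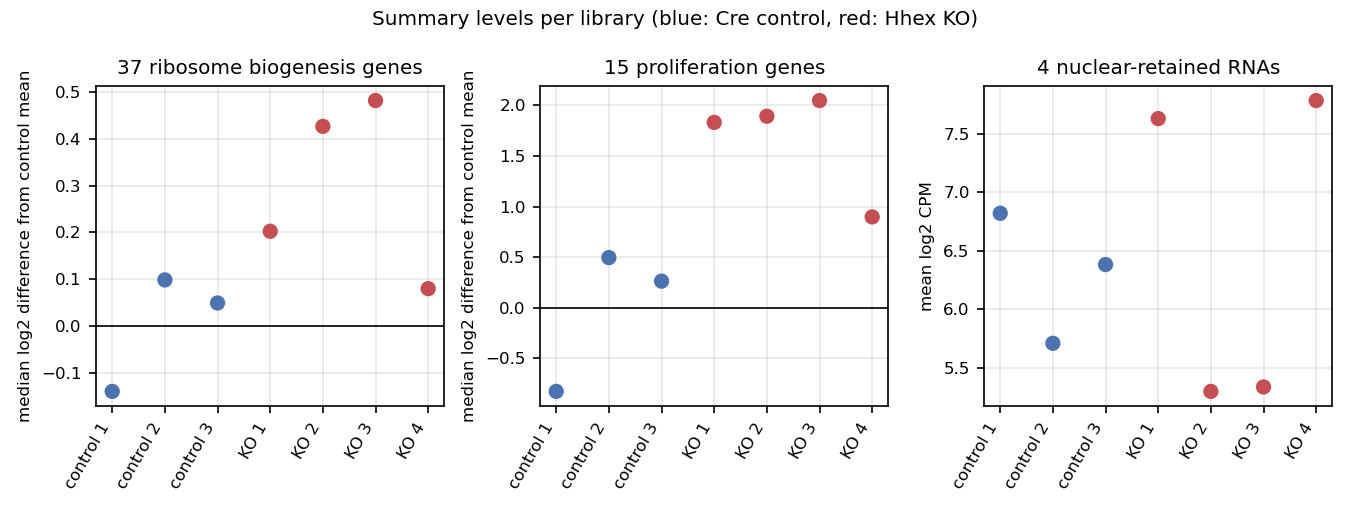
Per-library summaries (horizontal axes: the 7 libraries, controls in blue and KO in red): the median log2 difference from the control mean of 37 ribosome biogenesis genes (left) and of 15 proliferation genes (centre), and the mean log2 CPM of 4 nuclear-retained RNAs (right). Hhex KO replicates 2 and 3 are the highest on the left and the lowest on the right, and Hhex KO replicate 4 is at 0.08 on the left.

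The number of members called differed between fits, and the cause of the difference was not tested. DESeq2 called 4 members higher (Myc, Nle1, Nop56 and Npm1), against 5.14% of all genes. Limma-voom with sample quality weights called 21 members higher, against 12.7% of all genes; it gave Hhex KO replicates 1 and 4 the weights 0.342 and 0.262 and the other libraries 1.20 to 2.00. With the mean log2 level of 4 nuclear-retained RNAs as a covariate, chosen after the data were seen, edgeR also called 21 members higher, against 10.5% of all genes, and all 21 were shared with the weighted fit. Those 21 held Polr1a, Polr1b and Polr1c, the snoRNP genes Dkc1, Fbl, Gar1, Nhp2 and Nop56, and Npm1. They also held the small-subunit genes Heatr1, Nob1, Noc4l, Rrp12 and Tsr1 and the large-subunit genes Bop1, Nle1, Noc2l, Nop16, Nop2 and Wdr12, with Myc. The median log2 fold change of the members was 0.37 with the weights and 0.31 with the covariate. Under both, 0 members were lower, against 10.9% of all genes with the weights and 9.49% with the covariate.

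The calls also varied with the libraries left out. Without Cre control replicate 1, 2 or 3, 0 members were called, against 0.723%, 1.21% and 0.766% of all genes that were higher. Without Hhex KO replicate 1, 2 or 3, 1 member was called higher, Nle1, against 1.93%, 1.88% and 1.58% of all genes. Without Hhex KO replicate 4, Myc and Nle1 were called, against 4.35% of all genes. The median log2 fold change of the members ranged from 0.22, without Cre control replicate 1, to 0.31.

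**Figure D5:**
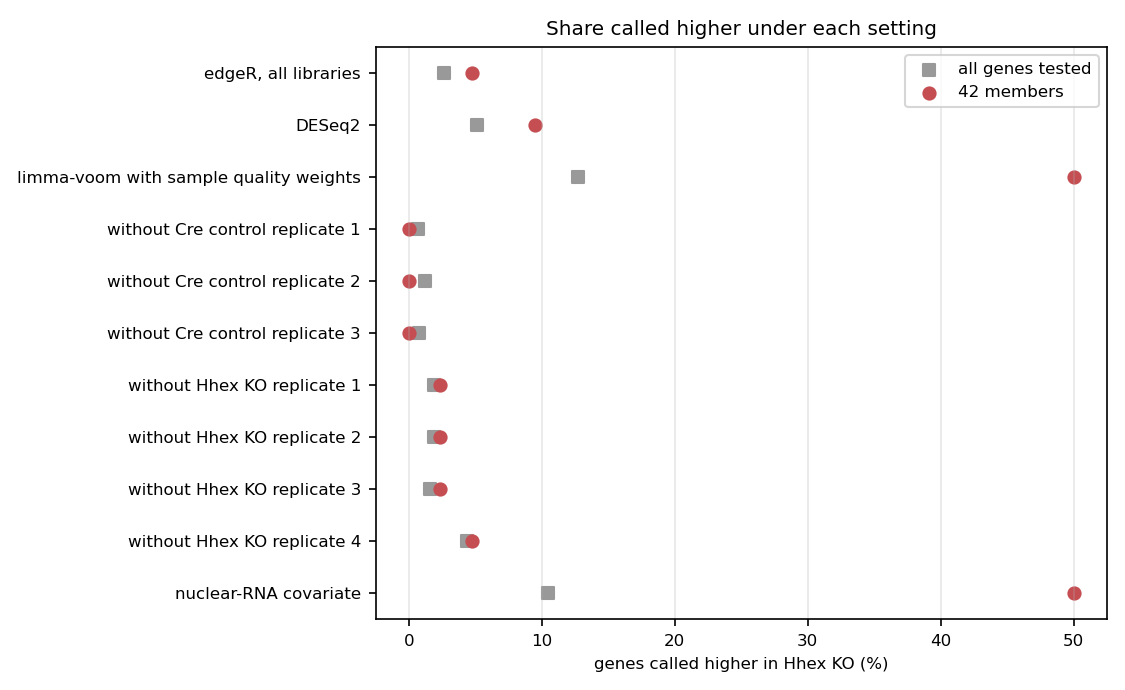
Share of genes called higher in Hhex KO (horizontal axis, percent) among the 42 members (red circles) and among all genes tested (grey squares), with all libraries, with other fits and with each library left out. The members' share is 50% with sample quality weights and with the nuclear-RNA covariate, and 4.76% with edgeR on all libraries.

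Targets of MYC outside ribosome biogenesis were also described. Of 33 listed genes, 32 were tested, 0 passed in either direction and the median log2 fold change was 0.39. It was above 0 for 29, against 52.7% of all genes tested. The 3 with the smallest p, named after their values were seen, went in different directions. Srm, spermidine synthase, was at 10.8, 13.5 and 13.0 CPM in the controls and 20.6, 29.7, 32.8 and 16.3 CPM in Hhex KO (log2 fold change 1.00 ± 0.25, adjusted p = 0.0571). Odc1, ornithine decarboxylase, which acts before it in polyamine synthesis, was at 101, 89.6 and 86.3 CPM against 64.6, 70.1, 67.5 and 49.3 CPM (-0.55 ± 0.14, adjusted p = 0.0631). Slc3a2, the CD98 heavy chain of amino acid transporters, was at 158, 171 and 166 CPM against 113, 130, 111 and 84.1 CPM (-0.59 ± 0.15, adjusted p = 0.0604). None of the 3 overlapped between groups and none passed the test.

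Per length of exon, the controls spanned from 0.996 ± 0.0528 CPM per kb for Wdr12 to 125 ± 10.5 for Npm1 (SD, n = 3). The summed exons measure 11955 bases for Wdr12, 10188 for Ncl and 2665 for Npm1, so the ranks depend in part on the annotation. Npm1 was followed by Ncl (57.4 ± 10.4), Npm3 (54.5 ± 3.29) and Ddx21 (44.4 ± 7.23). Npm1 was above the other genes in every library, Ncl and Npm3 overlapped, and Ddx21 lay below Npm3 in all 3 controls. In Hhex KO, Npm1 was at 171 ± 24.2 CPM per kb (SD, n = 4) and again the highest. Nle1 was at 2.39 ± 0.282 CPM per kb in the controls, within the spread of Utp20 (2.45 ± 0.676), and at 4.93 ± 0.829 in Hhex KO.

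Some values rest on reads that other genes can share. Of the 75-base stretches of its protein-coding transcripts, which have the length of a read, Fbl shared 63.4% with annotated transcripts of other genes, Tsr1 26.8%, Nop56 26.7%, Npm3 25.8%, Npm1 23.7%, Noc2l 18.3% and Pes1 13.1%, so the levels of these 7 are uncertain. Npm3-ps1, which shares stretches with Npm3 and was named after its values were seen, rose in Hhex KO. It averaged 0.278 ± 0.0191 CPM in the controls and 8.25 ± 1.47 CPM in Hhex KO (SD). Its part in the level of Npm3 was not tested. Myc, Nle1, Max and Mxd1 shared 0%, Polr1a 0.448%, Polr1b 0.461% and Wdr12 2.91%. Exons of 20 members overlap an exon on the other strand, and no source used here gives the strand setting of the counting. The opposite-strand neighbour of Nle1, Fndc8, had 0 reads in every library, whereas that of Nop56, Idh3b, was at 112 to 130 CPM and that of Heatr1, Lgals8, at 57.7 to 79.9 CPM. Ccnd3, opposite Bysl, was at 431 to 716 CPM and shared 7.59% of the 75-base stretches of Bysl. Pbrm1, opposite Gnl3, was at 143 to 199 CPM. In 4 members an exon overlaps that of another gene on the same strand.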

How the data were processed

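The authors deposited raw counts of reads per gene for 7 libraries. STAR, featureCounts and mm10 are named, without versions, in the submitters' processing notes; per the labels' protocols, libraries were made with a directional kit from RNA of RIN above 7.0 and read as 75 bp single ends. Columns were matched to samples by their label; 0 columns were left unused. Gene names, positions and exon lengths are those of GENCODE M21 (GRCm38), which matched 99.8% of identifiers.

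Counts were tested with edgeR 4.0.16 in R 4.3.3 (expression filter with minimum count 10 and minimum total 15, TMM scaling, robust quasi-likelihood F test, no covariate). P-values were adjusted over all 12161 genes tested and called below 0.05. The standard error is the log2 fold change divided by the square root of F. Levels per library used as log2 values had a prior count of 2. Replicates differed beyond sampling noise (chi-square per degree of freedom 10.4 to 71.5), so each library counted once. Pairs of controls were at 14.4 to 16.1. Of the Hhex KO pairs, replicates 2 and 3 were at 10.4, replicates 1 and 4 at 25.9, and the others at 62.8 to 71.5. The labels do not say that replicate numbers pair the samples, so the main fit has no block. Same-numbered libraries did not all deviate together. Alternatives used DESeq2 1.42.0, limma 3.58.1, other scalings and filters, and each library left out. The procedure was also run on simulated counts, drawn gene by gene without differences shared within a library. That run therefore does not bear on calls that depend on single libraries. The members, lists and tests were chosen with earlier results of these data known. Genes were given library by library if called, if in the MYC network, or if among the 2 smallest p of a role; from the context lists the called genes were named, at most 5 a list. The level of 1 marker gene is not reported here.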

Additional observations from a re-analysis of the deposited data

Results flagged for a closer look

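For 3 of the 42 members, 1 of the 4 Hhex KO libraries stood apart from the other 3 by more than the 95% limit of Dixon's test for an outlier (gap over range above 0.829). In each it was the low value of Hhex KO replicate 4: Mxi1 at 19.0 CPM (gap over range 0.887), Ncl at 492 CPM (0.880) and Ddx21 at 190 CPM (0.845). Chance gives such a gap in about 1 of 20 groups, and 42 groups were looked at. None of these 3 genes was called.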

How the results depend on the processing

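The count of members higher in Hhex KO, 2 with edgeR on all libraries, was 4 with DESeq2, 21 with limma-voom with sample quality weights, 21 with the nuclear-RNA covariate (added after the data were seen), and 0 to 2 with 1 library left out; the cause was not tested. It stayed at 2 with RLE and upper-quartile scaling, no filter, the stricter filter (10 CPM in 3 libraries) and limma-voom. The count of lower members was 0 under every alternative run, against 0.397% to 10.9% of all genes. The median log2 fold change was 0.30, and 0.22 to 0.31 with 1 library left out. That of Myc was 0.48 to 0.66, and its call was lost in 6 of these 7 fits (adjusted p 0.0336 to 0.216 over the 7). With 1 library left out, Max ranged from -0.015 to 0.091 and Mxi1 from -0.062 to 0.125 on the log2 scale, so their direction is not determined. The replicate block on the 6 libraries numbered 1 to 3 gave 7 members higher, against 4.11% of all genes, but the numbers were not shown to pair the samples: deviations of same-numbered libraries correlated at 0.33, 0.48 and -0.03. At these depths and with 4 against 3 libraries, the standard errors of the members, 0.10 to 0.28 on the log2 scale, limit what can be called.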
